A study of Homo sapiens with 9 samples.

Results

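The ribosome biogenesis factors are proteins that make ribosomal RNA (rRNA) and assemble the ribosome without staying in the finished particle. The genes were chosen by symbol, from a list of 38, and 37 of them were found among the 18153 genes of the deposited gene-level table. WDR43 was not found under that symbol. They were measured on 9 Illumina arrays of Huh-7, a human hepatoma line, with stable lentiviral short hairpin RNA (shRNA). A set of 6 arrays on a first platform held shNDRG3 cells after 6 h and 12 h and shHIF-1A cells after 12 h, all at 1% oxygen. It also held shGFP control cells after 6 h and 12 h at 1% oxygen, and shGFP cells in normoxia, labelled with both 6 h and 12 h. On a second platform, 3 arrays held shNDRG3 cells and shGFP cells after 24 h at 1% oxygen and shGFP cells in normoxia, labelled 24 h. Whether the normoxia array of the first platform stands for a single time or a pool is not stated.

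Each of the 9 groups is 1 array, and every group carries a lentiviral shRNA. Neither knockdown has an array in normoxia, so knockdown and control cells can be compared in hypoxia alone. The labels do not say whether a stable line is 1 clone or a pool. The 24 h time and the second platform cannot be told apart, and all differences were taken within a platform. Arrays of the first platform had a median gene intensity of 169.2 to 173.1, and those of the second of 269.8 to 276.1. Intensity of NDRG3, which encodes a protein of the NDRG family, was 268, 215 and 233 in shNDRG3 cells at 6, 12 and 24 h, against 1278, 1456 and 1712 in shGFP cells in hypoxia. HIF1A, the oxygen-regulated subunit of hypoxia-inducible factor 1, was at 231 in shHIF-1A cells at 12 h, against 897 in shGFP cells. Of 16 hepatocyte and hepatoma marker genes, between 1 and 5 were above the 40th percentile of the platform on any array, and their summed intensity was 1769 to 1838 on the first platform and 3085 to 3562 on the second. ALB, the albumin gene, was at 229 in shGFP cells in normoxia on the first platform, so the liver label had little support from its markers on these arrays. Of 11 markers of other cell types, 5 or 6 were above that percentile, led by the intermediate filament gene VIM at 10685 to 17239.

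Ribosomes are built in the nucleolus. RNA polymerase I copies the rDNA repeats into a long precursor, which the small subunit processome and small nucleolar ribonucleoprotein particles (snoRNPs) cut, fold and modify, and the 40S and 60S particles then mature separately and leave for the cytoplasm. Much of a growing cell's energy goes into this work, and the transcription factor MYC is known to raise the expression of many of its genes through E-box sequences (CACGTG) near their starts. The 37 genes found hold 7 genes of RNA polymerase I transcription, 5 of nucleolar phosphoproteins and snoRNP proteins, 10 of the small subunit processome and early cleavage, 6 of late 40S assembly and export, and 9 of 60S assembly.

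The promoters of several members carried the E-box just inside the transcribed side of the start. RefSeq promoters (GRCh38.p14, from 250 bases before to 50 bases after the annotated start) were given for 30 of the 37 members, 39 promoters in all. Of these, 13 (33.3%) held CACGTG, which reads the same on both strands, against 1851 of 22198 promoters of protein-coding genes (8.34%). By gene the counts were 13 of 30 members (43.3%), against 10.9% of all genes. Within the 50 bases from the start, 9 member promoters (23.1%) held it, against 206 of all promoters (0.928%), a window chosen after the positions were seen. The related letters CATGTG or CACATG, which are each other's reverse complement, were in 2 member promoters (5.13%), against 8.93% of all promoters. The members and the motif were chosen with earlier results of these data known. A match of letters is a description and does not show a bound site. Below, 4 member promoters with the E-box and 1 without it are shown 5′ to 3′ along the gene's strand, with the E-box in capitals. They belong to genes whose intensity was lower in hypoxic control cells, as given further on.
BYSL (chr6:41921249-41921548, plus strand): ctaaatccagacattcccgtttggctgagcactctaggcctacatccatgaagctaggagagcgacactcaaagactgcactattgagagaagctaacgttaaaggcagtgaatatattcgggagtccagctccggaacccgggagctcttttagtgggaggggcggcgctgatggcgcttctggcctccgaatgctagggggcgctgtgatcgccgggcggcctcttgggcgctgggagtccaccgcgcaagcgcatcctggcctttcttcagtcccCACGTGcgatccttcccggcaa
NOL6 (chr9:33473875-33474174, minus strand): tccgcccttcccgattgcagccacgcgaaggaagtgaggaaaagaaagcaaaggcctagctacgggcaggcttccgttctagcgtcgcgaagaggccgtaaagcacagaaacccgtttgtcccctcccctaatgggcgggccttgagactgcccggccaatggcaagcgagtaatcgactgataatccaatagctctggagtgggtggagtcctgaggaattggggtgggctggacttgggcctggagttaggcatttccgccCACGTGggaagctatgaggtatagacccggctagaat
MRTO4 (chr1:19251555-19251854, plus strand): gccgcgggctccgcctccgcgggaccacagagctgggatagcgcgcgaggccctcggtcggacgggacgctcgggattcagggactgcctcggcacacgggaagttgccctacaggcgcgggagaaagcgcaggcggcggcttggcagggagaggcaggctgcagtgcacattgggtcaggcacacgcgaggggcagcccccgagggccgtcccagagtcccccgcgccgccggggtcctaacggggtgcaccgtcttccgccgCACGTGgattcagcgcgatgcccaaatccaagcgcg
PNO1 (chr2:68157638-68157937, plus strand): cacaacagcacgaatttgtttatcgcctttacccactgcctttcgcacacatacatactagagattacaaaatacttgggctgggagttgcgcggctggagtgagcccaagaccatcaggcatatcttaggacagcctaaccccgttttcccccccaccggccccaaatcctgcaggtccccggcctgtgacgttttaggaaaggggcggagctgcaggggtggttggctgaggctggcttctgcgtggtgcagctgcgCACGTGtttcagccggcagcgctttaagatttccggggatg
DDX10 (chr11:108664819-108665118, plus strand): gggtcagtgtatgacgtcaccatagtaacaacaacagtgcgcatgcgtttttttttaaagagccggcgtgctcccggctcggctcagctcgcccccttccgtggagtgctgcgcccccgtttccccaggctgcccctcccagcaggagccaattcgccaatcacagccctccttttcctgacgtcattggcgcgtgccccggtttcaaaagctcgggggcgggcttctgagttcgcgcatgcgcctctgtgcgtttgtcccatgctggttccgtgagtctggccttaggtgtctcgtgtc
Counted from 1 at the annotated start, the E-box began at base 10 in PNO1, 14 in NOL6, 15 in MRTO4 and 29 in BYSL. In FBL and GNL3 it began at base 7, in PES1 at 14, in IMP4 at 16 and in MYBBP1A at 28, and in DDX21, LYAR, RRP9 and UTP14A, as for another copy in IMP4, it began upstream of the start. The letters of the DDX10 window held no CACGTG.

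**Figure D1:**
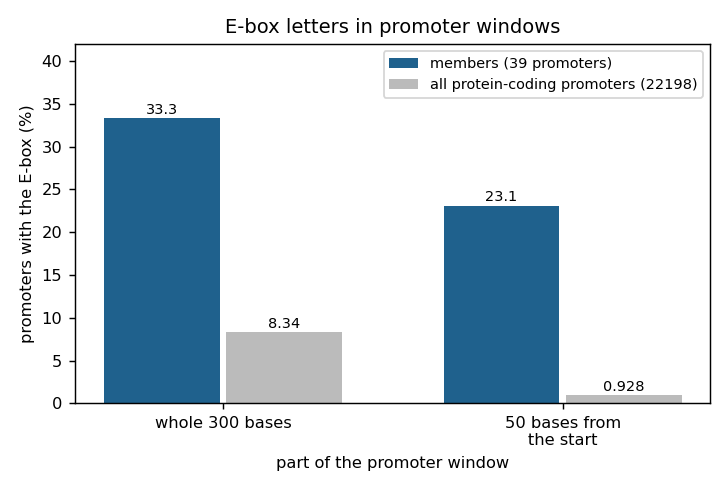
Share of promoters (%, vertical axis) that hold the letters CACGTG, in the whole window of 300 bases and in the 50 bases from the start, for the 39 member promoters and all 22198 promoters of protein-coding genes. In the 50 bases from the start the share is 23.1% among member promoters and 0.928% among all promoters.

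In control cells most of the factors were lower in hypoxia than in normoxia at every time, and lower at 12 h than at 6 h. The 24 h differences lie on the second platform, so their size cannot be ranked against the other times. Differences are given on the scale of log2(intensity + 32), which understates those of dim genes. The median difference of the 37 members, shGFP hypoxia over shGFP normoxia, came to -0.37, -0.83 and -0.58 after 6, 12 and 24 h. Over all genes above the 40th percentile of the platform on a compared array, the medians were -0.02, -0.01 and -0.03. Counts and medians of the direct differences cover all 37 members, of which 36 were above that percentile on a compared array. Because members and lists were chosen with earlier results of these data known, their shares beside all genes are descriptions. The members at least 1.5-fold lower numbered 9 at 6 h, 24 at 12 h and 18 at 24 h, against 1.13%, 7.03% and 9.2% of all genes at those times, and 0 were 1.5-fold higher at any time, against 2.31%, 7.0% and 8.97%. Below 0 were 30, 36 and 35 of the 37, against 53.2%, 51.6% and 52.7%. At 12 h, 17 members were at least 2-fold lower, against 1.53% of all genes. Below 0 at all 3 times were 30 of the 37, against 31.2% of all genes, and 16 were at least 1.5-fold lower at both 12 h and 24 h, against 3.7%. Each of these differences rests on 1 array a group and carries no test, the 6 h and 12 h differences share 1 normoxia array, and in bulk RNA fewer cells with a transcript and less of it per cell cannot be told apart. Among the 11 markers of other cell types, CD68, a lysosomal protein gene used as a macrophage marker, was at 895 and 1585 in shGFP cells after 6 and 12 h of hypoxia, against 739 in normoxia, and at 1439 after 24 h, against 640. The summed intensity of the 11 markers was 15045 and 17674 in these hypoxic cells, against 13018, and 21788 after 24 h, against 19110. Most of each sum was VIM, at 12539 and 14575, against 10685, and 17239 after 24 h, against 15002. The markers did not move together: COL1A1, a collagen gene, was at 412 and 300, against 449, and 315 after 24 h, against 518. In shNDRG3 cells at 24 h CD68 was at 572, against 1439 in shGFP cells. The part of these markers in the members' levels was not tested.

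With the 3 times standing in for replicates, no member passed the test across all genes. The hypoxia term of limma over the 5 shGFP arrays, with the platform as a block, was below 0 for 34 of the 37 and had a median of -0.64, against -0.02 over 12774 genes. At a Benjamini-Hochberg adjusted p under 0.05, 0 of 37 passed, against 0.0548% of all genes lower and 0.384% higher. At an unadjusted p under 0.05, 26 members were lower and 0 higher, against 10.6% and 8.78% of all genes. The lowest adjusted p of limma was 0.0786, for BYSL. Such a p rests on how much the times of 1 line differ among themselves and holds no spread between cultures. Without the 6 h array, 21 of the 37 fell, against 3.72% of 12644 genes, in a fit that left 1 residual degree of freedom. The 6 h array left out had a smaller median difference than the 12 h array of its platform. Calls without the 6 h array, given below by role and list, rest on that fit. Of these 21 members, RRS1 alone was also called without the 12 h array. The share of all genes called is not given for fits that leave out another time. Without the 12 h array 1 passed (RRS1, -1.41, limma adjusted p = 0.0174), and without the 24 h array 0.

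**Figure D2:**
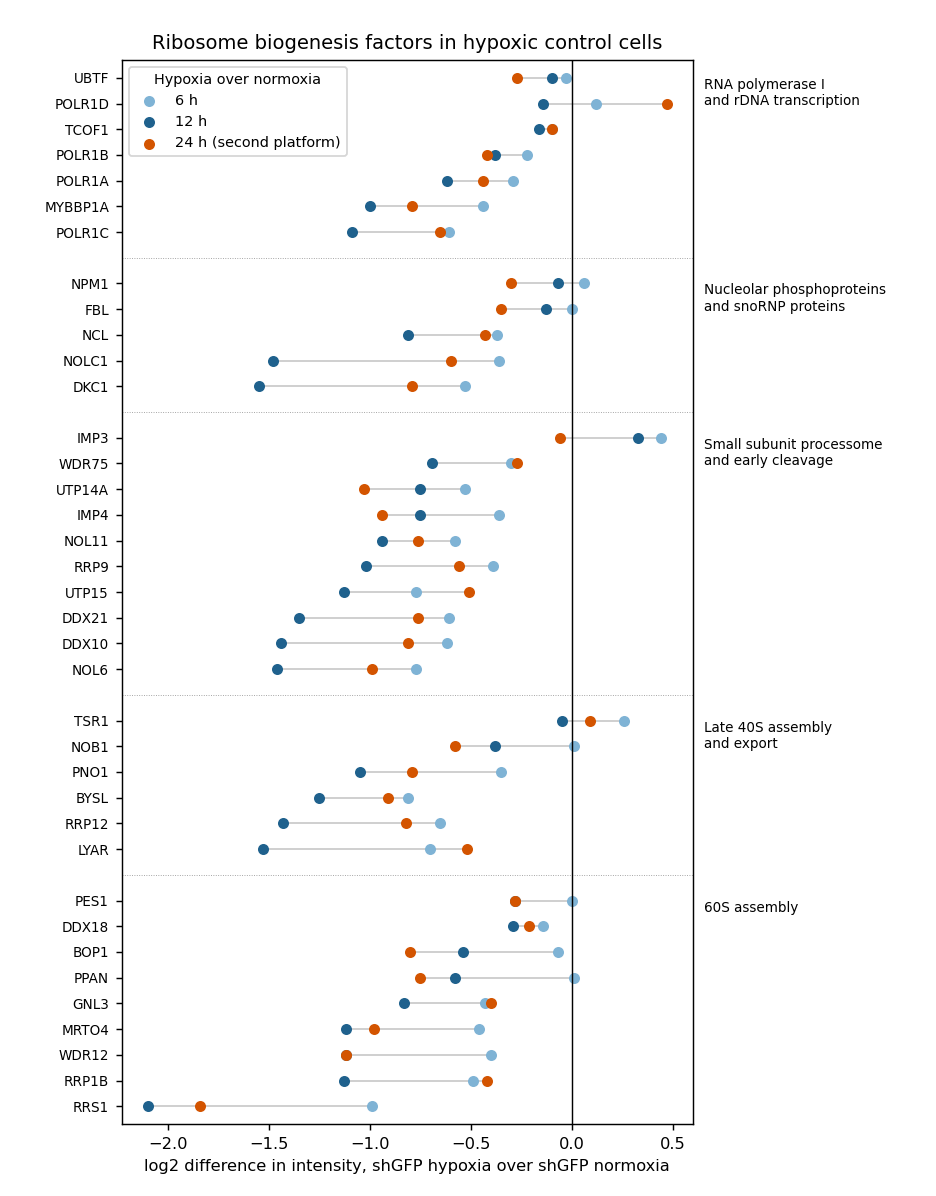
Difference in log2(intensity + 32), shGFP hypoxia over shGFP normoxia (horizontal axis), for each of the 37 members by role, with 1 point per time. At 12 h the points reach from -2.10 for RRS1 to 0.33 for IMP3, and 36 of 37 lie below 0.

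RRS1 was the member with the largest difference. It helps to bring the 5S ribonucleoprotein particle into the forming 60S subunit. Its intensity in shGFP cells was 1268 after 6 h and 570 after 12 h of hypoxia, against 2548 in normoxia, and 686 after 24 h, against 2536 in normoxia. Knockdown cells were no higher at 12 and 24 h, with 449 and 407 in shNDRG3 cells and 558 in shHIF-1A cells, and 1136 in shNDRG3 cells at 6 h. Each of the 7 hypoxic arrays lay below the normoxic array of its platform. The hypoxia term was -1.67 (SE 0.30, limma adjusted p = 0.0879, lower at 3 of 3 times), and without the 6 h array it was -1.97 (SE 0.16, limma adjusted p = 0.000766).

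The other genes of 60S assembly showed a wide range. In shGFP cells 1, 5 and 5 of the 9 were at least 1.5-fold lower at 6, 12 and 24 h, against 1.13%, 7.03% and 9.2% of all genes. In the fit over all times 0 of 9 fell. Without the 6 h array 5 of 9 did, against 3.72% (RRS1, WDR12, MRTO4, BOP1 and PPAN). WDR12, PES1 and BOP1 encode the PeBoW complex, which is needed to process the 60S part of the precursor. WDR12 was at 1697 and 1011 after 6 and 12 h, against 2243, and 1683 after 24 h, against 3688. BOP1 was at 3232 and 2318, against 3386, and 2842 after 24 h, against 4960. PES1 differed less, with 894 and 727, against 892, and 398 after 24 h, against 490. So the partners of 1 complex had differences at 24 h of -1.12 (WDR12), -0.80 (BOP1) and -0.28 (PES1). MRTO4, which holds the place of the stalk protein P0 on the precursor 60S particle, was at 1049 and 647, against 1450, and 866 after 24 h, against 1738. PPAN, a 60S assembly factor, was at 661 after 6 h, against 655, but at 426 after 12 h and at 562 after 24 h, against 969. DDX18, a nucleolar RNA helicase, was near its normoxic level, with differences of -0.14, -0.29 and -0.21 and a term that missed the test (limma adjusted p = 0.401). GNL3 (nucleostemin, a nucleolar GTPase) differed by -0.43, -0.83 and -0.40, and RRP1B, a nucleolar protein, by -0.49, -1.13 and -0.42.

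In the small subunit processome nearly every member was lower at 12 h. Of its 10 genes, 4, 9 and 6 were at least 1.5-fold lower at 6, 12 and 24 h, against 1.13%, 7.03% and 9.2% of all genes. In the fit over all times 0 fell, and without the 6 h array 8 did, against 3.72%. Whether these shares differ between roles was not tested. NOL6, a component of the processome, was at 954 and 579 after 6 and 12 h, against 1654, and 536 after 24 h, against 1094. Its hypoxia term was -1.06 (SE 0.21, limma adjusted p = 0.107). DDX10, an RNA helicase that acts on the small subunit precursor, was at 1345 and 749, against 2086, and 1918 after 24 h, against 3377, with a term of -0.93 (SE 0.24, limma adjusted p = 0.137). Both genes were lower on every hypoxic array than on the normoxic array of the platform. DDX21, a helicase that links polymerase I transcription with snoRNA release, was at 5256 and 3144, against 8037, and 4519 after 24 h, against 7696. UTP14A, whose yeast counterpart activates a helicase of the processome, was at 1508 and 1290, against 2185, and 1232 after 24 h, against 2542.

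UTP15, NOL11 and WDR75 belong to a subcomplex that joins rDNA transcription to processing. UTP15 was at 299 and 226, against 534, and 388 after 24 h, against 567. NOL11 differed by -0.58, -0.94 and -0.76, and WDR75 by -0.30, -0.69 and -0.27. RRP9, IMP3 and IMP4 are proteins of the U3 snoRNP, which guides the early cuts. RRP9 differed by -0.39, -1.02 and -0.56 and IMP4 by -0.36, -0.75 and -0.94. IMP3 was higher at first: its intensity was 14839 and 13729 after 6 and 12 h, against 10952 in normoxia, and 11432 after 24 h, against 11906. Its term of 0.19 did not pass (SE 0.15, limma adjusted p = 0.524).

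Late 40S assembly held both strongly lower members and TSR1, which was not. Of its 6 genes, 3, 4 and 3 were at least 1.5-fold lower at 6, 12 and 24 h, against 1.13%, 7.03% and 9.2% of all genes. In the fit over all times 0 fell, and without the 6 h array 4 did, against 3.72% (BYSL, RRP12, LYAR and PNO1). BYSL (bystin), which binds the precursor 40S particle, was at 1030 and 752, against 1829, and 1534 after 24 h, against 2901. Its term was -0.98 (SE 0.16), and over the alternatives run its limma adjusted p lay between 0.0109 (6 h array left out) and 0.297 (background subtracted). RRP12, an export and maturation factor of the particle, was at 698 and 395, against 1116, and 572 after 24 h, against 1037, with a term of -0.95 (SE 0.23, limma adjusted p = 0.129). These genes were lower than in normoxia on each hypoxic array of their platform. PNO1, which binds the end of the 18S rRNA, was at 777 and 466, against 1001, and 871 after 24 h, against 1534. LYAR, a nucleolar protein of precursor processing, was at 1650 and 910, against 2691, and 2864 after 24 h, against 4129. NOB1, the endonuclease that makes the final cut of 18S rRNA, differed by 0.01, -0.38 and -0.58. TSR1, a late 40S factor related to GTPases, was at 1113 and 895, against 927, and 1203 after 24 h, against 1130, and its term was 0.10 (SE 0.14, limma adjusted p = 0.755).

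Among nucleolar and snoRNP proteins the 5 members divided. At 6, 12 and 24 h, 0, 3 and 2 were at least 1.5-fold lower, against 1.13%, 7.03% and 9.2% of all genes. DKC1 (dyskerin, the pseudouridine synthase of H/ACA snoRNPs) was at 6845 and 3358 after 6 and 12 h, against 9903, and 7062 after 24 h, against 12249. Its term was -0.93 (SE 0.28, limma adjusted p = 0.165). NOLC1, a chaperone of snoRNPs, was at 1471 and 658, against 1897, and 1435 after 24 h, against 2184. Neither DKC1 nor NOLC1 passed over all times. Both fell in the fit without the 6 h array, with terms of -1.17 (limma adjusted p = 0.0164) and -1.04 (limma adjusted p = 0.0286). They were 2 of the 5 members, against 3.72% of all genes, and that fit left 1 residual degree of freedom. NCL (nucleolin), a major nucleolar phosphoprotein, was at 6346 and 4699, against 8237, and 6185 after 24 h, against 8343. FBL (fibrillarin, the methyltransferase of C/D snoRNPs) stayed closer to its normoxic level, at 6753 and 6177, against 6775, and 8725 after 24 h, against 11112. NPM1 (nucleophosmin), an abundant nucleolar protein, was dim here and above the 40th percentile of the platform on 1 array alone, so its values sit near background.

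RNA polymerase I genes differed among themselves. Of the 7, 1, 3 and 2 were at least 1.5-fold lower at 6, 12 and 24 h, against 1.13%, 7.03% and 9.2% of all genes. In the fit over all times 0 fell, and without the 6 h array 2 did, against 3.72% (POLR1C and MYBBP1A). POLR1C, a subunit shared with RNA polymerase III, was at 2583 and 1836, against 3949, and 2308 after 24 h, against 3632. POLR1D, its partner in both polymerases, was at 7137 and 5952, against 6576, and 11554 after 24 h, against 8304. So the shared subunits differed in opposite directions at 6 and 24 h, at -0.61 and -0.65 for POLR1C and at 0.12 and 0.47 for POLR1D, and the POLR1D term was 0.20 (SE 0.17, limma adjusted p = 0.559) and -0.01 without the 24 h arrays. MYBBP1A, a nucleolar partner of MYB, differed by -0.44, -1.0 and -0.79. POLR1A and POLR1B, the largest subunits, and TCOF1 (treacle, which acts with the polymerase) were below the 40th percentile on 3 to 4 of the 9 arrays, and their differences lay between -0.62 and -0.10. UBTF, the factor that opens the rDNA promoter, differed by -0.03, -0.10 and -0.27.

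The factors varied together over the arrays, with few exceptions. Over the 9 arrays, each platform centred on its own mean, the correlation of a member with the mean of the other 36 was highest for RRP12 (Pearson r = 0.99) and lowest for POLR1D (-0.38), IMP3 (-0.10), FBL (0.35) and TSR1 (0.53). The centred mean of the members was highest on the normoxia array of each platform, at 0.52 and 0.40. The arrays of a platform share their scaling, so these values describe the arrays. Among 13032 genes outside the lists, those most like the member mean were FAM86C (r = 0.996), GPATCH4 (0.992), SLC5A6 (0.991), HPDL (0.990) and RPP40 (0.989). In shGFP cells GPATCH4 differed by -0.72, -1.59 and -1.23 at 6, 12 and 24 h, and RPP40, a subunit of RNase P, by -0.62, -1.24 and -0.64. The 13 members with an E-box in the promoter window had a median difference of -1.02 at 12 h, and the 17 without one -0.62, with ranges that overlapped (-1.53 to -0.13, against -1.55 to 0.33). At 6 h the medians were -0.44 and -0.29, and at 24 h -0.79 and -0.44. FBL and PES1, with an E-box, differed by -0.13 and -0.28 at 12 h, and DKC1, without one, by -1.55. The part of the E-box in these differences was not tested.

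**Figure D3:**
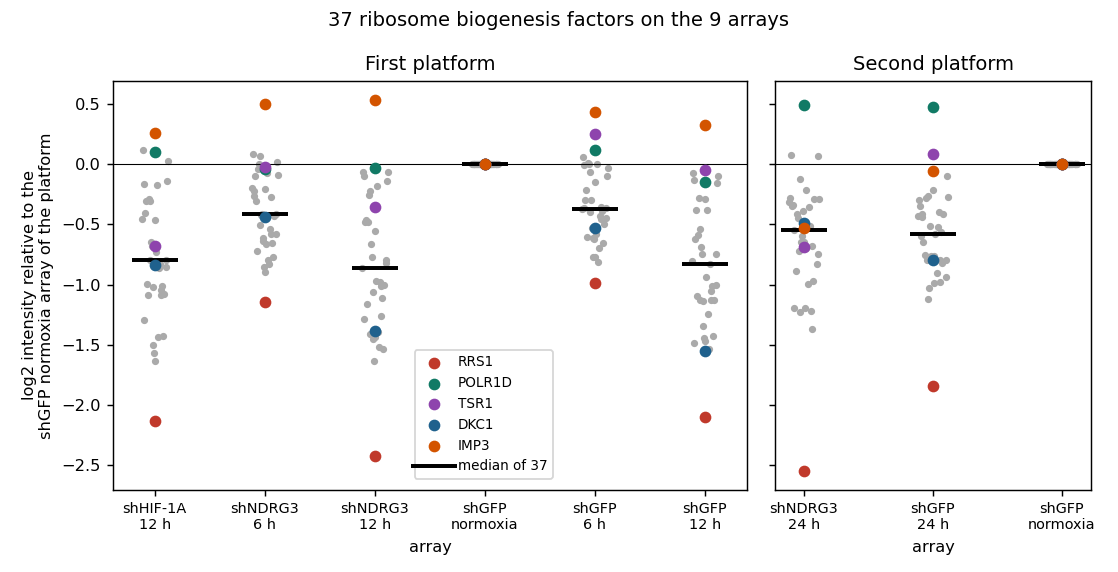
Difference in log2(intensity + 32) from the shGFP normoxia array of the platform (vertical axis), for the 37 members on each of the 9 arrays, with 5 members in colour and the median as a black bar. At 12 h the medians lie at -0.80 in shHIF-1A cells, -0.86 in shNDRG3 cells and -0.83 in shGFP cells.

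Other assembly genes, taken from lists of the same pathway, were lower in hypoxic control cells as well, while ribosomal protein genes were centred on no difference. The list of other polymerase I genes includes subunits shared with other RNA polymerases, such as POLR2L. Of its 12 genes tested, 8 were lower at an unadjusted limma p under 0.05 and 0 higher (median term -0.47), against 10.6% and 8.78% of all genes. Of 33 other 40S factors, 19 were lower and 0 higher (median -0.40). Of 43 other 60S factors, 20 were lower and 1 higher (median -0.36). In each of the 3 lists 0 genes passed at the adjusted p, and without the 6 h array 4, 11 and 12 fell, against 3.72% of all genes. HSPC111 (NOP16), a 60S factor, was at 1229 and 529 after 6 and 12 h, against 2203, and 439 after 24 h, against 1462, with a term of -1.52 (SE 0.32, limma adjusted p = 0.112). NIP7, another 60S factor, had a term of -1.20 and LTV1, a 40S export factor, of -1.09. DDX51, a helicase of 60S assembly, had the largest positive term of the 3 lists. It was at 2072 and 3102, against 1856, and 3609 after 24 h, against 1196. It did not pass over all times (0.93, SE 0.28, limma adjusted p = 0.165) and rose by 1.15 without the 6 h array (limma adjusted p = 0.0195).

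The 80 cytosolic ribosomal protein genes tested, whose products make up the finished particle, had a median hypoxia term of 0.00, with 3 lower and 1 higher at an unadjusted limma p under 0.05 and 0 at the adjusted p. At 6, 12 and 24 h, 0, 3 and 3 of the 82 in the table were at least 1.5-fold lower, against 1.13%, 7.03% and 9.2% of all genes, and 0, 0 and 2 were at least 1.5-fold higher, against 2.31%, 7.0% and 8.97%. The lowest term was that of RPL29 (-0.91), which fell with RPL36A without the 6 h array, and the highest that of RPL28 (0.43, limma adjusted p = 0.164). Ribosomal protein genes have many near-identical copies, so their probes may not separate them. Set side by side, the median differences at 12 h were -0.83 for the assembly factors and -0.03 for the ribosomal proteins; this difference between lists was not tested.

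**Figure D4:**
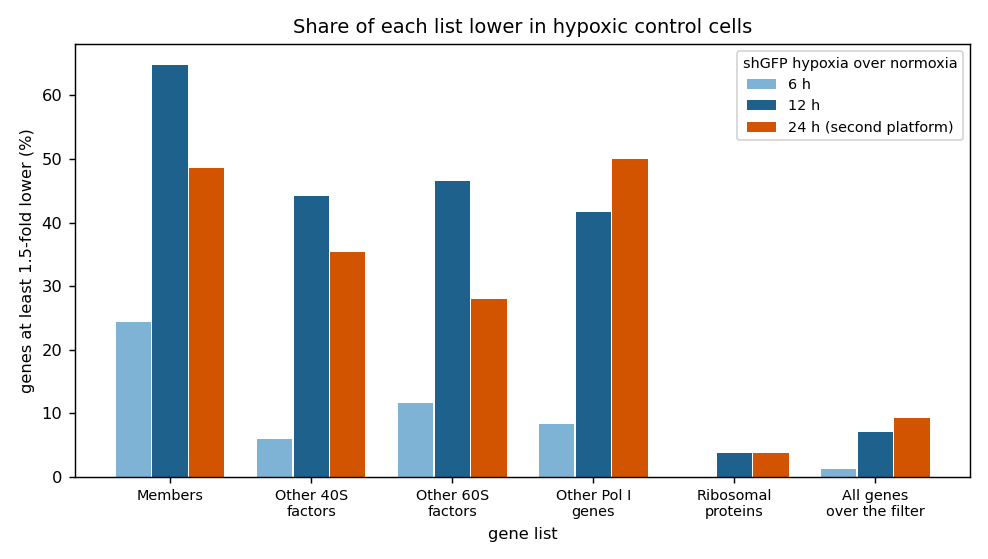
Share of genes (%, vertical axis) at least 1.5-fold lower in shGFP hypoxia than in shGFP normoxia at 6, 12 and 24 h, for the members, the other lists of the pathway, the ribosomal proteins and all genes above the 40th percentile of the platform. At 12 h 24 of the 37 members and 3 of the 82 ribosomal proteins are counted, and 7.03% of all genes.

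MYC, which encodes a known regulator of the family, was also lower in hypoxic control cells. Its intensity was 5957 and 5359 after 6 and 12 h, against 7550, and 1539 after 24 h, against 3911. Its differences were -0.34, -0.49 and -1.33 at 6, 12 and 24 h, and its term was -0.81 (SE 0.21, limma adjusted p = 0.143). The part of MYC in the members' levels was not tested.

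NDRG3 knockdown left the factors near their control levels in hypoxia. The median difference of shNDRG3 over shGFP cells over the 3 times was -0.06, 0.01 and 0.01 (6, 12 and 24 h), against 0.00, 0.00 and 0.04 over all genes. At 6 and 12 h 0 members were 1.5-fold lower, against 0.423% and 0.76% of all genes, and at 24 h 2 were, against 6.93%. None was 1.5-fold higher, against 0.423%, 0.654% and 5.53% of all genes. The NDRG3 term of limma over the 9 arrays called 0 of 37, against 0.00755% of 13237 genes, and 3 members had an unadjusted p under 0.05, against 8.53%. A p that misses the threshold does not show that the lines are alike.

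TSR1 and RRS1 had the largest negative NDRG3 terms, each lower at 3 of 3 times. TSR1 was at 913, 717 and 688 in shNDRG3 cells at 6, 12 and 24 h, against 1113, 895 and 1203 in shGFP cells, with a term of -0.45 (SE 0.13, limma adjusted p = 0.535). At 24 h its difference was -0.78. RRS1 was at 1136, 449 and 407 in shNDRG3 cells, against 1268, 570 and 686 in shGFP cells, with a term of -0.39 (SE 0.13, limma adjusted p = 0.556). DDX18 was at 2749, 2146 and 2874, against 2863, 2586 and 3892, with a term of -0.25 (SE 0.11). In these 3 genes the difference was largest at 24 h, which lies on the second platform. HIF1A itself was at 805, 1065 and 331 in shNDRG3 cells at 6, 12 and 24 h, against 824, 897 and 572 in shGFP cells, so it too was lower at 24 h (-0.74). Its part in these differences was not tested.

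BOP1, DKC1 and NOLC1 had the largest positive NDRG3 terms. BOP1 was at 3549, 2905 and 3641 in shNDRG3 cells at 6, 12 and 24 h, against 3232, 2318 and 2842 in shGFP cells (term 0.27, SE 0.09, limma adjusted p = 0.564). DKC1 was at 7293, 3775 and 8710, against 6845, 3358 and 7062 (term 0.19). NOLC1 was at 1576, 758 and 1715, against 1471, 658 and 1435 (term 0.18). All 3 were higher in shNDRG3 cells at each time, by less than 1.5-fold. IMP3 turned at 24 h, with 15539 and 15909 in shNDRG3 cells at 6 and 12 h, against 14839 and 13729 in shGFP cells, and 8238 at 24 h, against 11432. POLR1D was at 6402, 6439 and 11717 in shNDRG3 cells, against 7137, 5952 and 11554 in shGFP cells.

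The most negative members in hypoxic control cells had these levels in shNDRG3 cells. NOL6 was at 873, 592 and 459 in shNDRG3 cells at 6, 12 and 24 h, against 954, 579 and 536 in shGFP cells. BYSL was at 1042, 676 and 1436, against 1030, 752 and 1534. RRP12, with 640, 365 and 514, against 698, 395 and 572, was slightly lower at each time. DDX10 was lower in shNDRG3 cells at 6 and 12 h (1140 and 651, against 1345 and 749) and higher at 24 h (2573, against 1918).

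For 4 members named for their difference in shHIF-1A cells, the levels in shNDRG3 cells were as follows. LYAR was at 1501, 918 and 3213 in shNDRG3 cells at 6, 12 and 24 h, against 1650, 910 and 2864 in shGFP cells. NCL was at 7194, 4528 and 6697, against 6346, 4699 and 6185. PPAN was at 638, 461 and 509, against 661, 426 and 562, and UTP15 at 331, 239 and 350, against 299, 226 and 388. In none of these genes did shNDRG3 cells lie on 1 side of control at all 3 times.

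**Figure D5:**
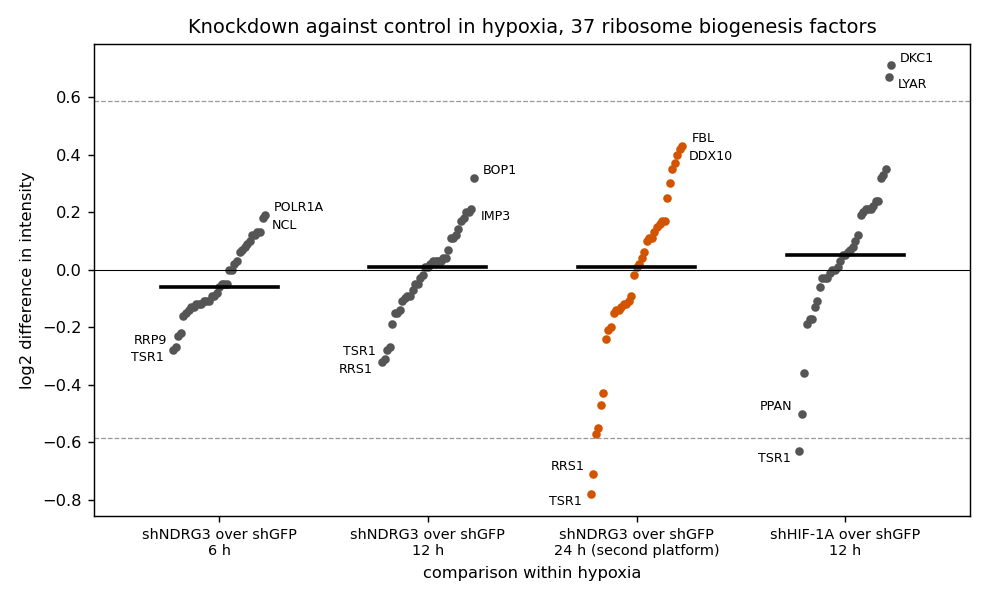
Difference in log2(intensity + 32) of knockdown over shGFP cells in hypoxia (vertical axis) for the 37 members in 4 comparisons of 1 array each, in order of size, with the median as a black bar and dashed lines at 1.5-fold. TSR1 lies at -0.63 and DKC1 at 0.71 in shHIF-1A cells, and the medians lie between -0.06 and 0.05.

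HIF1A knockdown at 12 h left the median of the members near 0 (0.05, shHIF-1A over shGFP, against 0.01 over all genes), with a range from -0.63 to 0.71. TSR1 was at least 1.5-fold lower (1 of 37, against 3.04% of all genes), and DKC1 and LYAR were at least 1.5-fold higher (2 of 37, against 3.24%). These shares are near those of all genes. LYAR was at 1467 in shHIF-1A cells, against 910 in shGFP cells (0.67), and DKC1 at 5517, against 3358 (0.71). NCL was at 5996, against 4699 (0.35). All 3 were still below their intensity in normoxic shGFP cells, which was 2691, 9903 and 8237.

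On the other side, TSR1 was at 567 in shHIF-1A cells, against 895 in shGFP cells (-0.63). PPAN was at 292, against 426 (-0.50), and UTP15 at 168, against 226 (-0.36). Of the 6 members with the lowest hypoxia terms, DKC1 was higher in shHIF-1A cells, as given above, and the other 5 were closer to control cells: RRS1 was at 558, against 570, RRP12 at 395 on both arrays, NOL6 at 511, against 579, BYSL at 657, against 752, and DDX10 at 682, against 749. The remaining levels in shHIF-1A and shGFP cells were 754 and 658 for NOLC1, 2737 and 2318 for BOP1, 2291 and 2586 for DDX18, 13148 and 13729 for IMP3, and 7049 and 5952 for POLR1D.

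The limma HIF1A term, in which the spread of the single shHIF-1A array was borrowed from the other arrays, called 0 of 37 and 0 of 13237 genes, and 7 members had an unadjusted p under 0.05, against 10.8% of all genes. Without the 24 h arrays 8 of 36 were called, in a fit that left 1 residual degree of freedom: TSR1, PPAN and UTP15 fell, and DKC1, LYAR, NCL, WDR12 and DDX21 rose. The same fit called 7.71% of 12156 genes lower and 8.84% higher. Set against shNDRG3 cells at 12 h, shHIF-1A cells had a median difference of 0.08, with PPAN 1.5-fold lower (-0.60, against 2.77% of all genes) and LYAR (0.66) and WDR12 (0.61) 1.5-fold higher (against 2.67%). The comparisons of the knockdowns with control cells at 12 h share 1 shGFP array.

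The median member was below control normoxia on every hypoxic knockdown array too. The median of the 37 members over the shGFP normoxia array of the platform was -0.41 in shNDRG3 cells at 6 h, -0.86 in shNDRG3 cells at 12 h, -0.80 in shHIF-1A cells at 12 h and -0.54 in shNDRG3 cells at 24 h. At least 1.5-fold lower were 11, 23, 24 and 18 members on these arrays, against 2.09%, 8.37%, 8.37% and 12.6% of all genes. From 6 h to 12 h within 1 line, the median difference of the 12 h over the 6 h array was -0.42 in shNDRG3 cells, with 33 of 37 below 0 (49.7% of all genes), and -0.43 in shGFP cells, with 37 of 37 (49.7%). At least 1.5-fold lower at 12 h were 12 members in shNDRG3 cells, against 2.42% of all genes, and 14 in shGFP cells, against 2.08%. These comparisons were chosen after values were seen, and the arrays over normoxia mix knockdown with oxygen.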

How the data were processed

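Per the labels' protocols, biotin-labelled RNA was made from purified total RNA by an Illumina amplification kit. The authors deposited linear intensity values per probe for each platform and per gene over all 9 arrays. Their sorted values nearly coincide between arrays of a platform, so they appear quantile normalized. The lowest probe values were 58.0 on the first platform and 104.7 on the second, so background appears not to have been subtracted. For the scanner, software and normalization, nothing is stated: they are not given in the sources used. Of the members, 25 equal 1 probe on both platforms, the same probe in each case.

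Values were analysed as log2(intensity + 32). Genes under the 40th percentile of the platform (127.3 or 210.2) on every compared array were left out of the limma fits and of the shares and medians over all genes. Direct counts and medians of members and lists cover every gene found; 33 members lay above the percentile on every array. limma 3.58.1 (R 4.3.3; lmFit, eBayes, Benjamini-Hochberg over all genes) gave a hypoxia term from the 5 shGFP arrays, blocked by platform, and NDRG3 and HIF1A terms from the 9 arrays, with each condition and time having its own mean. With all times entered, each fit left 2 residual degrees of freedom. "Rose" and "fell" are used of limma calls at an adjusted p under 0.05. The number of arrays limits the precision. Alternatives varied the filter, pseudocount, background, centring, probe averaging and times entered.

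Members, lists, roles and the motif were chosen with earlier results of these data known. Values on every array are given for RRS1 and for members by rank: the 6 lowest and up to 4 highest positive hypoxia terms, the 3 largest NDRG3 terms of each sign, and the 3 largest differences of each sign for shHIF-1A over shGFP cells. In other lists, the 3 largest terms of each sign could be named. Other members were chosen for their role. Older symbols were updated through a RefSeq table (GRCh38.p14), which also gave the promoters.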

Additional observations from a re-analysis of the deposited data

Results flagged for a closer look

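WDR12, a 60S assembly gene of the PeBoW complex, differed in opposite directions in the knockdown lines at 12 h. Its intensity was 1277 in shHIF-1A cells and 825 in shNDRG3 cells, against 1011 in shGFP cells, differences of 0.33 and -0.28. It is listed because every array of one knockdown lay above control and every array of the other below it at that time. The difference between the knockdowns was not tested, since each is 1 array, and both are set against the same shGFP array. At 24 h WDR12 was at 2224 in shNDRG3 cells, against 1683 in shGFP cells.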

How the results depend on the processing

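No paired analysis was possible because every group is 1 array and the labels carry no shared replicate numbers. The hypoxia terms of 36 of the 37 members kept 1 sign in every alternative, and the term of POLR1D ranged from -0.01 without the 24 h arrays to 0.30 without the 12 h arrays (0.20 over all times). The count of members past the adjusted limma threshold for hypoxia was 0 with all shGFP arrays, 3 with the 60th percentile filter, 1 among genes equal to 1 probe, and 0 to 21 when 1 time was left out (21 without 6 h, 1 without 12 h). For the HIF1A term it was 0 over all arrays. Without the 24 h arrays the count was the one given in the Results, from a fit that left 1 residual degree of freedom. Neither fit held a spread of the shHIF-1A array. Without the 12 h arrays the HIF1A term has no value, since the only shHIF-1A array drops out. For the NDRG3 term the count was 0 in all alternatives run. Beside the hypoxia counts, the share of all genes is given only with all shGFP arrays and without the 6 h array. Medians over control normoxia moved by more than 0.09, the spread used, under these alternatives. With the 60th percentile filter they were -0.99 in shNDRG3 and -1.01 in shGFP cells at 12 h, and -0.65 and -0.70 at 24 h. After background subtraction they were -0.89 in shHIF-1A, -1.16 in shNDRG3 and -1.14 in shGFP cells at 12 h, and -0.77 in shNDRG3 and -0.81 in shGFP cells at 24 h. Among genes equal to 1 probe they were -0.97 in shNDRG3 and -1.0 in shGFP cells at 12 h and -0.75 in shGFP cells at 24 h, and with no pseudocount -0.95 in shNDRG3 cells at 12 h. The median of 12 h over 6 h became -0.64 in shNDRG3 and -0.56 in shGFP cells after background subtraction. Counts of members at least 1.5-fold apart in either direction became, after background subtraction, 14 for shGFP hypoxia over normoxia at 6 h, 20 for 12 h over 6 h in shNDRG3 cells, 2 and 6 for shNDRG3 over shGFP at 12 and 24 h, 8 for shHIF-1A over shGFP and 6 for shHIF-1A over shNDRG3. Each of the last 3 was 1 among genes equal to 1 probe, and the last was also 1 with a pseudocount of 100. Both the filter and the 1-probe setting change which members enter; for the other settings the cause was not tested. Without an estimate of background, differences of dim members are understated.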
